A study of Mus musculus with 8 samples.

Results

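The genes of interleukin-4 (IL-4) receptor signalling were described in mouse bone marrow-derived macrophages, cells grown from bone marrow. They were chosen by position: a locus of the authors' merged mm9 annotation entered if it held a coding transcript identical to a reference transcript inside a window around Il4ra, Il2rg, Stat6, Socs1, Socs3 or Cish. The rule used no measured value and found 7 of the 31020 loci, of which 19989 are protein-coding. The Socs1 window held 2 loci. The one whose length was nearest to that of the RefSeq gene, 1728 against 1729 nucleotides (nt), was called Socs1, and the other was left unnamed. The files pair no locus with a gene name, so the 6 names rest on these windows.

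RNA was measured in 4 libraries of IL-4-treated and 4 libraries of untreated macrophages, all of the C57BL/6 strain. No genetic change is labelled in either group. The labels used here give no dose of IL-4, no time of treatment and no age or sex of the mice. The submitters call the samples of a group biological replicates without naming the animals, so the p-values speak only of the spread seen among these 8 libraries. Total counts per library ran from 23071022 to 27783417. Libraries are written below in the order of replicates 1 to 4.

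IL-4 is a cytokine of type 2 immunity that drives macrophages into what is known as alternative activation. It binds the IL-4 receptor alpha chain, encoded by Il4ra, which pairs with the common gamma chain, encoded by Il2rg, or with the IL-13 receptor alpha 1 chain. Janus kinases on the receptor then phosphorylate STAT6, which dimerises, enters the nucleus and activates transcription. SOCS1, SOCS3 and CISH belong to the suppressor of cytokine signalling family, whose genes are classical targets of STAT factors and whose products dampen receptor signalling.

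STAT dimers recognise a palindrome with a short spacer, and the promoters of the inhibitor genes are shown because those genes carried the largest rises described below. The promoter windows, 250 bases before to 50 after the RefSeq gene start, came from RefSeq on GRCm38.p6, whose coordinates differ from mm9. All 6 genes had a window. The starts are those of RefSeq, and the deposited transcripts may start elsewhere. Each sequence runs 5′ to 3′ on the strand of its gene, and capitals mark matches to TTCNNNGAA.
Cish, around its start, chr9:107296654-107296683, plus strand: cagttTTCCTGGAAagTTCTTGGAAatctg
Socs3, the 250 bases before its start, chr11:117969367-117969616, minus strand: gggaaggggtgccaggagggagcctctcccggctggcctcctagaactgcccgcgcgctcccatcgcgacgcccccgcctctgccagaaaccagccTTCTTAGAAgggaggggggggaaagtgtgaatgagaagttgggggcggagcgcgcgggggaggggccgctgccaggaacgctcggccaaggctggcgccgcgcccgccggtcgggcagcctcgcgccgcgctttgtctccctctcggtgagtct
Socs1, the 250 bases before its start, chr16:10785537-10785786, minus strand: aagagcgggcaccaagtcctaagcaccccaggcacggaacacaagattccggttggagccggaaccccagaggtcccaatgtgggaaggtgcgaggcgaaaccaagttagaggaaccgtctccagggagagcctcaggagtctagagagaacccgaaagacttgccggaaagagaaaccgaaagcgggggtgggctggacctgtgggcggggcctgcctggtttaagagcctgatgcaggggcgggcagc
The Cish window held 2 matches, TTCCTGGAA at bases 1 to 9 and TTCTTGGAA at bases 12 to 20 counted from the start. The Socs3 window held 1 match, TTCTTAGAA at bases -154 to -146. No match to TTCNNNGAA was found in the windows of Socs1, Il4ra, Il2rg or Stat6. No match to TTCNNNNGAA, the spacing that STAT6 is known to prefer, was found in any of the 6 windows, those of Cish and Socs3 included. Among 32851 mouse promoter windows of the same length, 8.3% held TTCNNNGAA, 6.95% held TTCNNNNGAA, 14.6% held either and 0.457% held TTCNNNGAA at 2 or more places. Both motifs read the same on either strand, and they cannot start at the same base. A match is a run of letters and says nothing on binding in these cells.

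With IL-4, the 3 inhibitor genes Socs1, Cish and Socs3 were higher, the common gamma chain gene Il2rg was lower, and the ligand-binding chain gene Il4ra and the transcription factor gene Stat6 did not pass the test. Counts were tested with edgeR's quasi-likelihood test over 13761 loci, and calls were made at a Benjamini-Hochberg adjusted p under 0.05. Of the 6 named loci, 3 were called higher and 1 was called lower. Over all loci tested, 51.8% were called, 25.6% higher and 26.2% lower, so a call by itself sets none of these genes apart. The groups did not overlap in CPM (the share that a locus takes of all counts of its library, rescaled) for 4 of the 6, against 50.2% of all loci tested. By fitted fold change, Cish ranked 93, Socs1 129 and Socs3 500 of 13761 loci from the highest. Cish is among the ranked loci only because it was high with IL-4, since it met the filter's minimum in 0 untreated libraries, so its rank is a description. Socs3 met that minimum in 3 untreated and 4 IL-4 libraries, and the filter asks for 4. Its place among the ranked loci thus also depended on IL-4 libraries, and its rank is a description too. Il2rg ranked 1495 from the lowest. The median log2 fold change was 1.09 over the 6 loci and -0.022 over all loci tested. The value of 1.09 falls in the gap between Socs3 at 2.16 and Stat6 at 0.02. No gene lay near it, so it does not describe a shift shared by the 6 loci.

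**Figure D1:**
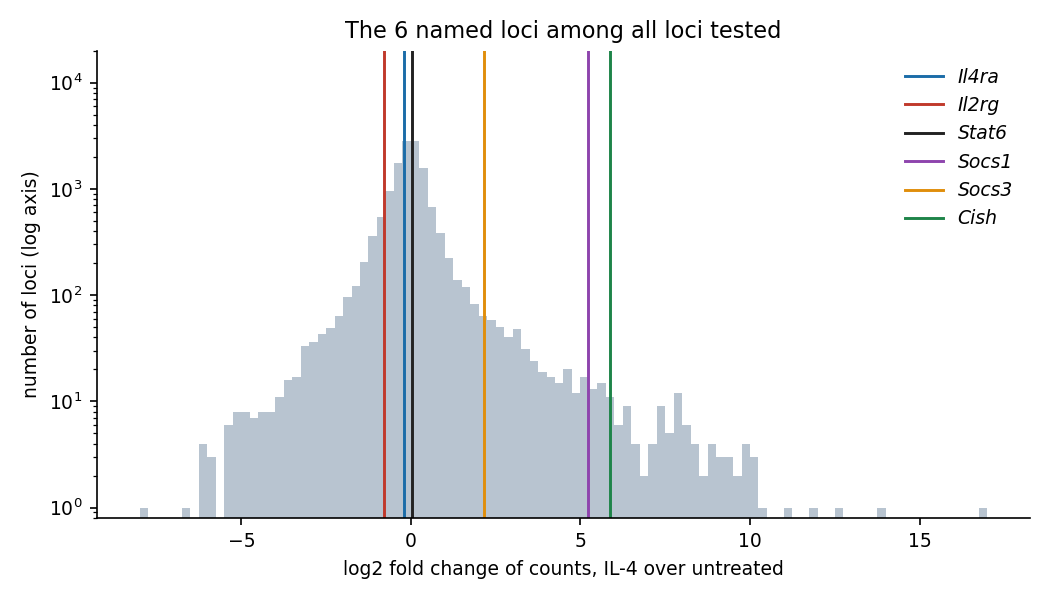
Histogram of the log2 fold changes of all 13761 loci tested (x axis, IL-4 over untreated, bars of equal width; y axis, number of loci, log axis), with 1 coloured line for each named gene. Cish at 5.88 and Socs1 at 5.23 lie in the sparse right tail, while Stat6 at 0.02 and Il4ra at -0.20 lie at the peak.

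In bulk RNA, a change in the share of cells that express a gene and a change in RNA per cell cannot be told apart. This holds for every gene below. The identity of the cells could not be checked against macrophage markers, because 0 of the files' IDs occur in the tables that pair IDs with gene symbols. For the same reason 0 of 35 further pathway genes, among them the Janus kinases, the other STAT genes and the IL-13 receptor chain, could be matched, and they are not described.

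**Figure D2:**
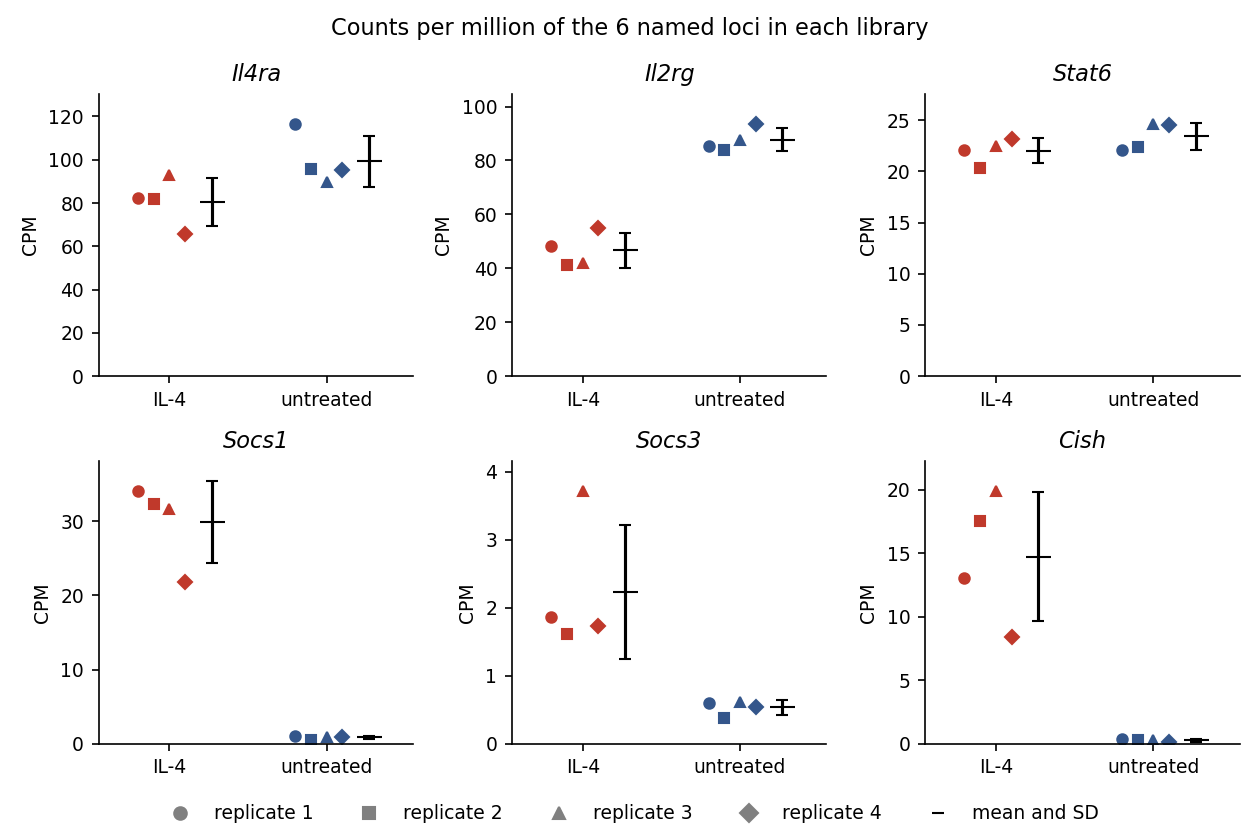
CPM (y axis, linear from 0) of the 6 named loci in each library, 1 panel per gene, with IL-4 left of untreated. Marker shapes give the replicate number, and the bar beside each group is the mean with its SD (n = 4). Il2rg, Socs1, Socs3 and Cish have groups that do not overlap, whereas Il4ra and Stat6 overlap.

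Il4ra lies on mm9 chromosome 7, plus strand, from 132695796 to 132722988, with 4 transcripts of up to 12 exons. It had 82.2, 81.8, 92.8 and 65.9 CPM in IL-4-treated cells, against 117, 95.7, 89.8 and 95.02 CPM in untreated cells. The groups overlapped: IL-4 replicate 3 lay above the lowest untreated library, and the untreated library was the higher one in 3 of 4 same-numbered pairs. The mean was 80.7 ± 11.1 CPM with IL-4 and 99.3 ± 11.8 CPM without (SD, n = 4 each). The log2 fold change was -0.20 (SE 0.11, edgeR adjusted p = 0.1608), with a 95% interval of the fold from 0.736 to 1.03. 

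The 4 isoforms of Il4ra were set apart because the mouse gene is known to give a secreted form of the receptor beside the membrane form, although the files do not say which isoform encodes it. FPKM, which scale fragments to transcript length and to library size, were tested with limma on log2(FPKM + 0.1), a scale that understates changes of low isoforms. The 11-exon reference isoform carried 72.2% of the summed FPKM with IL-4 and 72.8% without. Its level was 8.53 ± 1.09 FPKM with IL-4 and 10.1 ± 1.35 FPKM without (SD, n = 4 each). The change of -0.25 (SE 0.12) did not pass the test (limma adjusted p = 0.14). Over all 17500 isoforms tested, 38.4% were called. The 12-exon reference isoform, at 0.709 ± 0.15 FPKM with IL-4 and 0.641 ± 0.232 FPKM without, was under 1 FPKM in every library. The test asked for at least 1 FPKM in at least 4 libraries, so this isoform was not tested.

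Both remaining Il4ra isoforms end early, at position 132715794. The 7-exon reference one had 0.819, 0.516, 1.38 and 0.585 FPKM with IL-4, against 1.07, 1.93, 1.28 and 1.96 FPKM without. The groups overlapped through IL-4 replicate 3, which lay above 2 of the untreated libraries. It made up 6.79% of the summed FPKM with IL-4 and 11.4% without. The log2 change was -0.89 (SE 0.32, limma adjusted p = 0.05794). Left out in turn, 2 libraries moved it past the threshold: without IL-4 replicate 3 it was -1.14 (limma adjusted p = 0.01672), and without untreated replicate 1 it was -1.04 (limma adjusted p = 0.04187). Other settings made it smaller: it was -0.72 without IL-4 replicate 2 (limma adjusted p = 0.138), -0.77 without untreated replicate 4 (limma adjusted p = 0.1384), -0.66 without both replicate 4 libraries (limma adjusted p = 0.2442) and -0.49 with 1 added in place of 0.1. Over all alternatives run it lay between -1.14 and -0.49. The other short isoform, an assembled one of 8 exons, had 1.79 ± 0.326 FPKM with IL-4 and 1.57 ± 0.424 FPKM without (SD, n = 4 each), a change of 0.19 (SE 0.22, limma adjusted p = 0.5308).

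Isoform use was taken as the log2 ratio of an isoform to the sum of the other isoforms, and was tested with limma for 3 Il4ra isoforms, and 0 passed after adjustment. An unadjusted p under 0.05 was reached by 1 of them, and diffSplice, the other tool run, also called 0. Over all 11384 isoforms in that test, 10.2% were called. The use of the 8-exon short isoform changed by 0.52 (SE 0.18, limma adjusted p = 0.1315), that of the 7-exon one by -0.71 (SE 0.33, limma adjusted p = 0.2318) and that of the 11-exon one by 0.03 (SE 0.13, limma adjusted p = 0.9096). The point estimates of the pair of short isoforms thus ran in opposite directions, without a call for either.

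**Figure D3:**
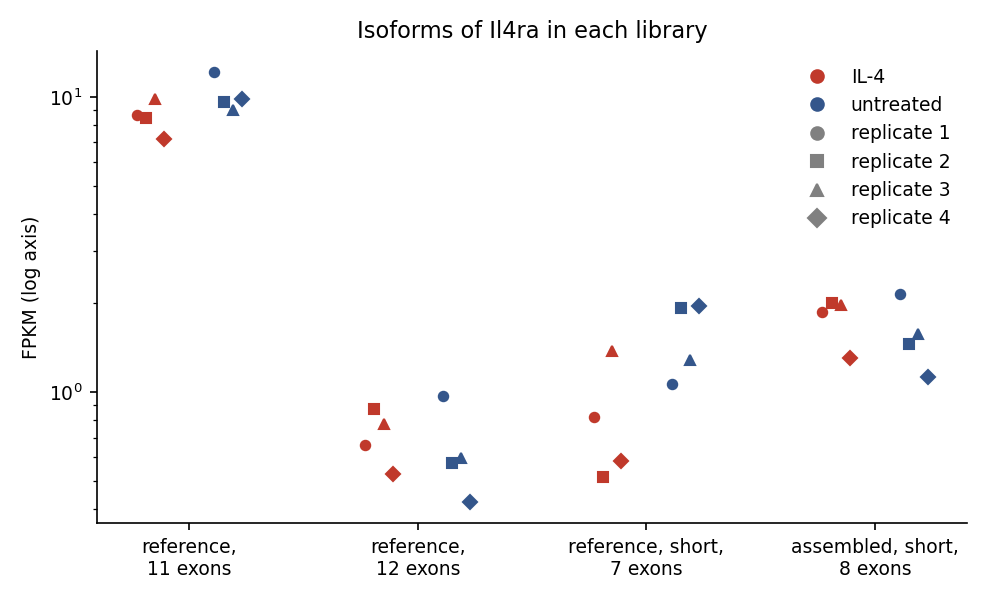
FPKM (y axis, log axis) of the 4 Il4ra isoforms in each library, with IL-4 (red) left of untreated (blue) and marker shapes for the replicate number. The 7-exon isoform lies between 0.516 and 1.38 with IL-4 and between 1.07 and 1.96 without, and all 4 isoforms overlap between groups.

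Il2rg, whose product is shared by the receptors of several interleukins, lies on mm9 chromosome X, minus strand, from 98459670 to 98463545, with up to 8 exons. It had 48.2, 41.1, 42.1 and 55.0 CPM in IL-4-treated cells, against 85.3, 84.0, 87.7 and 93.6 CPM in untreated cells. Every IL-4 library lay below every untreated library, and replicate 4 was the highest of both groups. The mean was 46.6 ± 6.38 CPM with IL-4 and 87.7 ± 4.26 CPM without (SD, n = 4 each). Il2rg was 1.75-fold lower with IL-4. Its log2 fold change was -0.80 (SE 0.10, edgeR adjusted p = 4.641e-05), with a 95% interval from -1.02 to -0.59.

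The fall of Il2rg was carried by its 8-exon reference isoform, which made up 96.7% of the summed FPKM with IL-4 and 95.5% without. That isoform had 19.3 ± 2.99 FPKM with IL-4 and 34.2 ± 1.86 FPKM without (SD, n = 4 each), a log2 change of -0.83 (SE 0.10, limma adjusted p = 0.0003284). A short 2-exon reference isoform was listed at 0.313, 0.348, 0.259 and 0.259 FPKM with IL-4, against 0.708, 0.859, 0.677 and 0.570 FPKM without. Its groups did not overlap, but it was too low to be tested. How often the groups stay apart over all isoforms was not measured, so this sets the isoform apart from no other.

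Stat6 lies on mm9 chromosome 10, plus strand, from 127079607 to 127098043, with 22 exons. Of its 4242 exonic nt, 3406, or 80.3%, are shared with a coding locus on the opposite strand, at 127084740 to 127105692, and 836 are not. Its counts were 7.13% of the number that its FPKM and length would give at a typical coding locus without such sharing, while the other 5 genes stood at 94.3% to 103%. The sources used here do not say how the counter treated reads that meet 2 loci. Stat6 is therefore given by both counts and FPKM.

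Stat6 had 570, 565, 538 and 628 counts with IL-4, against 549, 598, 569 and 587 counts without. The groups overlapped, and the log2 fold change was 0.02 (SE 0.07, edgeR adjusted p = 0.8619), with a 95% interval of the fold from 0.903 to 1.13. In summed FPKM, the sum over the isoforms of a locus, Stat6 had 51.2, 50.4, 52.4 and 55.5 with IL-4, against 59.2, 51.8, 53.8 and 56.4 without. These groups overlapped too, though the IL-4 library was the lower one of each same-numbered pair. The log2 change of summed FPKM was -0.08 (SE 0.06, limma adjusted p = 0.2866), and it passed the threshold under quantile normalization alone among the alternatives run (-0.15, limma adjusted p = 0.02512). The 95% interval of the log2 change ran from -0.21 to 0.05 in summed FPKM.

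The opposite-strand locus that shares exons with Stat6 had 41.2 ± 1.6 CPM with IL-4 and 52.8 ± 0.841 CPM without (SD, n = 4 each). It was 1.19-fold lower (log2 fold change -0.25, SE 0.06, edgeR adjusted p = 0.004632). Reads from the shared exons cannot be assigned to a strand from these files.

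Socs1, whose product inhibits the catalytic activity of Janus kinases, lies on mm9 chromosome 16, minus strand, from 10783902 to 10785629, with 2 exons. It had 880, 897, 759 and 589 counts in IL-4-treated cells, against 27, 15, 20 and 22 counts in untreated cells. All IL-4 libraries were far above all untreated ones, and replicate 4 was the lowest with IL-4. In CPM, Socs1 averaged 29.9 ± 5.54 with IL-4 and 0.859 ± 0.219 without (SD, n = 4 each). It was 37.4-fold higher with IL-4 (95% interval 27.7 to 50.5), or by 5.23 on the log2 scale (SE 0.20, edgeR adjusted p = 8.735e-09).

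Cish, whose product is best known for dampening STAT5 signalling, lies on mm9 chromosome 9, plus strand, from 107199020 to 107207255. It had 336, 487, 476 and 227 counts in IL-4-treated cells, against 9, 8, 6 and 3 counts in untreated cells. All IL-4 libraries were far above all untreated ones, where Cish had only a handful of reads each, and replicate 4 was the lowest of both groups. The mean was 14.7 ± 5.08 CPM with IL-4 and 0.262 ± 0.101 CPM without (SD, n = 4 each). It was 58.7-fold higher with IL-4 (95% interval 34.1 to 101), or by 5.88 on the log2 scale (SE 0.36, edgeR adjusted p = 2.142e-07). Cish met the filter's minimum of 0.395 CPM in the 4 IL-4 libraries and in 0 untreated ones, so it entered the test through the group in which it was high.

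With IL-4, the 3-exon reference isoform of Cish held 66.5% of the summed FPKM, at 1.73 ± 0.668 FPKM (SD, n = 4). A 2-exon reference isoform held 8.34% on average, but its share was unstable. It ran from 0.0269% in IL-4 replicate 2 to 15.4% in IL-4 replicate 4. Both of these end at position 107204292. An assembled 2-exon isoform of 8013 nt held 25.2%, at 0.648 ± 0.222 FPKM (SD, n = 4), and reaches position 107207255. A further assembled isoform of 3 exons, classed as a match to the reference, also reaches 107207255. It had no more than 2.602e-06 FPKM in any library. In untreated cells, with 26 counts over 4 libraries, shares of isoforms were not readable.

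Socs3, whose product is best known for dampening signalling by receptors of the gp130 family, lies on mm9 chromosome 11, minus strand, from 117827401 to 117830680, with 2 exons. It had 48, 45, 89 and 47 counts in IL-4-treated cells, against 15, 10, 14 and 13 counts in untreated cells. The groups did not overlap, and IL-4 replicate 3 stood well above the other IL-4 libraries. The mean was 2.23 ± 0.992 CPM with IL-4 and 0.532 ± 0.109 CPM without (SD, n = 4 each). Socs3 was 4.47-fold higher with IL-4 (95% interval 2.73 to 7.32), or by 2.16 on the log2 scale (SE 0.32, edgeR adjusted p = 0.0002007). Without IL-4 replicate 3 the log2 fold change was 1.83 (SE 0.22, edgeR adjusted p = 0.0001051). Socs3 met the filter's minimum of 0.395 CPM in the 4 IL-4 libraries and in 3 untreated ones, so its entry into the test depended on IL-4 libraries. Of the 3 inhibitors it had the smallest rise, and its interval does not meet that of Socs1 or Cish, although the difference between genes was not tested.

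The unnamed locus in the Socs1 window, on chromosome 16 from 10788028 to 10788748, had 0, 3, 4 and 2 counts with IL-4, against 1, 0, 0 and 0 counts without. The ratio of the summed counts, scaled to the library totals, was 8.47 with an exact 95% binomial interval of 1.17 to 371, which covers counting error only. It lay under the filter and was not tested.

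Levels of different genes were set side by side per length, as summed FPKM. Of the exonic nt of Stat6, 80.3% are shared with an opposite-strand locus, so its level may include reads of that locus, which was not tested. With IL-4 the order was Stat6 (52.3), Il2rg (19.9), Socs1 (16.7), Il4ra (11.9), Cish (2.56) and Socs3 (0.530). In untreated cells it was Stat6 (55.3), Il2rg (35.8), Il4ra (13.9), Socs1 (0.459), Socs3 (0.119) and Cish (0.0324). Neighbours in the untreated order did not overlap. With IL-4 the ranges of Il2rg and Socs1 overlapped, as did those of Socs1 and Il4ra, though Socs1 was above Il4ra in each of the 4 libraries. Socs1, below both receptor chains in untreated cells, thus stood between them by its mean with IL-4.

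**Figure D4:**
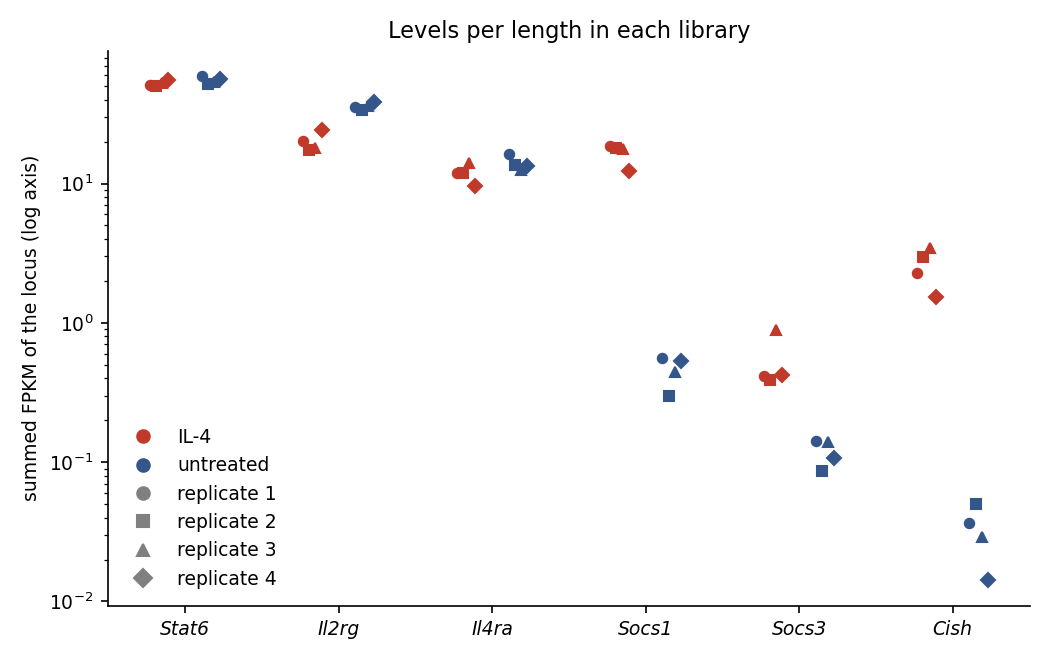
Summed FPKM (y axis, log axis) of the 6 named loci in each library, ordered by their untreated level, with IL-4 (red) left of untreated (blue) and marker shapes for the replicate number. Socs1 lies at 12.3 to 18.6 with IL-4 and at 0.300 to 0.561 without, and Stat6 lies above 50 in both groups.

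Summed FPKM were tested with limma on log2(summed FPKM + 0.1) for loci at 1 FPKM or more in 4 libraries, and 51.3% of 10946 loci were called. Of the 5 named loci tested, 2 were called higher and 1 lower. Socs1 had 16.7 ± 2.92 FPKM with IL-4 and 0.459 ± 0.117 FPKM without (SD, n = 4 each), a log2 change of 4.92 (SE 0.18, limma adjusted p = 8.241e-08). Cish had 2.56 ± 0.835 FPKM with IL-4 and 0.0324 ± 0.015 FPKM without, a log2 change of 4.28 (SE 0.24, limma adjusted p = 8.352e-07). The added 0.1 pulls the folds of such low loci down: the Cish change was 5.93 with 0.01 added and 1.75 with 1 added, and the Socs1 change was 5.17 with 0.01 added and 3.59 with 1 added. Socs1 and Cish reached 1 FPKM in IL-4 libraries only, so both entered this test through the group in which they were high.

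Il2rg had 19.9 ± 3.03 FPKM with IL-4 and 35.8 ± 1.91 FPKM without (SD, n = 4 each) and was 1.8-fold lower (log2 change -0.85, SE 0.10, limma adjusted p = 9.181e-05). Il4ra changed by -0.24 (SE 0.12, limma adjusted p = 0.1296). Socs3 was below the minimum in all libraries. Without that minimum its change was 1.47 (SE 0.24, limma adjusted p = 0.001907 over 20798 loci). For Il4ra and Il2rg the counts and the FPKM gave changes of like size.

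**Figure D5:**
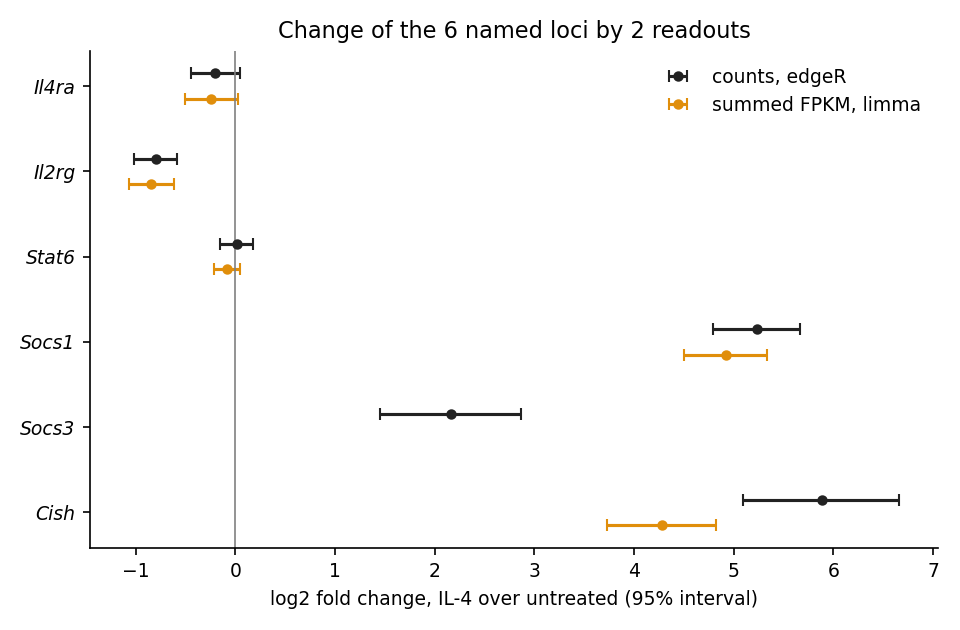
Log2 change, IL-4 over untreated (x axis), of the 6 named loci (rows) from counts (black, edgeR) and from summed FPKM (orange, limma on log2(summed FPKM + 0.1)), with 95% intervals. The intervals of Socs1, Socs3 and Cish lie above 0, that of Il2rg lies below 0, and those of Il4ra and Stat6 include 0. Socs3 has no orange point because it was too low for that test.

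Ratios within a library do not depend on its depth. Summed FPKM of Socs1 over that of Il4ra was 1.55, 1.53, 1.27 and 1.29 with IL-4, against 0.0345, 0.0221, 0.0357 and 0.0398 without. The RNA of the inhibitor thus exceeded that of the receptor chain, per length, in every IL-4 library, and was a few percent of it in every untreated one. Il4ra over Il2rg was 0.591, 0.679, 0.779 and 0.398 with IL-4, against 0.463, 0.402, 0.350 and 0.348 without. That ratio was higher with IL-4 in 4 of 4 same-numbered pairs, but the groups overlapped through IL-4 replicate 4. Il2rg over Stat6 was 0.380 ± 0.0436 with IL-4 and 0.648 ± 0.0373 without (SD, n = 4 each), with no overlap. The Stat6 level in that ratio carries the limit of shared exons given above.

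Replicate 4 stood apart in 2 ways. The 18 loci of chromosome Y with counts listed held 5525 counts in IL-4 replicate 4 and 5808 in untreated replicate 4, against 1 to 3 in the other IL-4 libraries and 0 to 7 in the other untreated ones. IL-4 replicate 4 was also the IL-4 library nearest to the untreated mean at 37.1% of the 7127 loci called, and so it was for Il2rg, Socs1 and Cish. For Socs3 the nearest was IL-4 replicate 2. With both replicate 4 libraries left out, the log2 fold change was 5.38 for Socs1, 5.84 for Cish, 2.26 for Socs3, -0.87 for Il2rg and -0.14 for Il4ra, and the calls of these genes and of Stat6 were as before. Within replicate 4 itself there is 1 library a group, whose values are given above.

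The coding loci whose CPM followed each gene most closely were taken as the 2 with the highest Pearson correlation of log2(CPM + 0.5) over the 8 libraries, among 10796 loci. The libraries fall into 2 groups, so r can include the difference between groups, and values of 1 library share its depth. Socs1 was followed by a chromosome 2 locus at 165102056 to 165154115 (r = 0.999), at 272 ± 9.44 CPM with IL-4 and 138 ± 5.51 CPM without. The next was a chromosome 7 locus at 16534336 to 16552884 (r = 0.9983), at 4.197 ± 0.6 CPM with IL-4 and 0.112 ± 0.0392 CPM without, 38.6-fold higher. As many as 1379 loci had r over 0.9 with Socs1.

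Cish was followed by a chromosome 12 locus at 45953473 to 46175470 (r = 0.9987), which had 6.85 ± 1.61 CPM with IL-4 and 0.253 ± 0.0523 CPM without. Its second was a chromosome 1 locus at 174430377 to 174437506 (r = 0.9984). Those of Socs3 were a chromosome 9 locus at 120448936 to 120477443 (r = 0.9781), which shared the high IL-4 replicate 3 at 1.13 CPM, and a chromosome 2 locus at 28689123 to 28761095 (r = 0.9754). Il2rg was followed by a pair of chromosome 19 loci at r = 0.9961 each. The one at 11543832 to 11605805 had 47.5 ± 18 CPM with IL-4 and 380 ± 69.4 CPM without, 7.42-fold lower. The one at 10054245 to 10076123, of whose exons 53.8% are shared with another locus, was 2.9-fold lower. Loci with r over 0.9 numbered 1383 for Cish, 593 for Socs3 and 1759 for Il2rg. The loci named here are thus only the closest of many.

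Il4ra was followed by a chromosome 10 locus at 126512349 to 126530539 (r = 0.9583), which itself was called lower, at 2.06 ± 0.763 CPM with IL-4 and 4.22 ± 1.15 CPM without (SD, n = 4 each; log2 fold change -0.94, edgeR adjusted p = 0.01614). The next was a chromosome 2 locus at 91482496 to 91490211 (r = 0.9571), and 33 loci had r over 0.9. Stat6 was followed by a chromosome 8 locus at 112138417 to 112198286 (r = 0.9437). Its second was a chromosome 2 locus at 25074265 to 25077801 (r = 0.9259), and 4 loci had r over 0.9. That second locus was low, at 0.216 to 0.417 CPM with IL-4 and 0.323 to 0.694 CPM without. The Stat6 counts behind these r values carry the limit of shared exons given above.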

How the data were processed

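The authors deposited a table of raw counts per merged locus (31020 loci, 9940 of them at 0 throughout) and FPKM for 89208 transcripts. Per the submitters' processing notes, CASAVA 1.8.2, TopHat2 2.0.9, Cufflinks 2.1.1, HTSeq and the build mm9 were used. Settings and strand handling are not given in the sources used here. Per the labels' protocols, total RNA was depleted of ribosomal RNA. All value columns matched a library, and 0 were left over. The rule for named loci took the 6 genes, the 2 loci most like each and all loci within 20 kb. The genes and gene lists were chosen with earlier results of these data known.

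Counts were tested with edgeR 4.0.16 (R 4.3.3; TMM factors, default filter, two-sided quasi-likelihood test with IL-4 over untreated). FPKM were taken as log2(FPKM + 0.1) and tested with limma 3.58.1 and its variance trend. CPM are scaled to total counts, while fold changes use TMM factors, which ran from 0.943 to 0.980 in IL-4 libraries and from 1.02 to 1.07 in untreated ones. The SE of an edgeR fold change was derived from its F value. P-values were Benjamini-Hochberg adjusted over all loci or isoforms tested. The procedures were also run on simulated data, but the outcome is not given here, so that run adds no support to the result of any gene. Alternatives were other scalings and filters, DESeq2 1.42.0, a minimum fold of 1.5, other pseudocounts, diffSplice, a replicate block and left-out libraries.

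Same-numbered libraries deviated together from their group means, with correlations over loci of 0.1495 to 0.3895, all over 0.1, and may be paired. The main tests took no account of such pairing, and a replicate block was run only as an alternative. The correlations come from the data, not the labels, and are weak: differently numbered libraries ran from -0.2677 to 0.2605. IL-4 replicate 2 correlated more with untreated replicate 3 (0.2605) than with its own number (0.1495). The replicate 4 libraries also shared their chromosome Y counts, 5525 with IL-4 and 5808 without, against 0 to 7 in the other libraries. Whether same-numbered libraries share an animal is not labelled. For FPKM the depth behind a value is unknown.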

Additional observations from a re-analysis of the deposited data

Results flagged for a closer look

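Of the 24 sets of 4 libraries looked at (CPM and summed FPKM of the 6 genes in each group), 3 held a library far from the other libraries of its set by Dixon's test at the 95% level. Chance alone marks about 1 in 20 such sets. Socs3 in IL-4 replicate 3 was one of them in both readouts, at 3.71 CPM against 1.62 to 1.86 CPM in the other IL-4 libraries, and at 0.892 summed FPKM against 0.390 to 0.421. Those are 2 readings of the same reads. Socs1 in IL-4 replicate 4 was low, at 12.3 summed FPKM against 17.7 to 18.6 in the other IL-4 libraries. Both libraries remain outside the untreated range of their gene, at 0.375 to 0.607 CPM for Socs3 and 0.300 to 0.561 summed FPKM for Socs1. The cause was not tested.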

How the results depend on the processing

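No called value changed direction in the alternatives run, all planned ones. In counts, 3 of the genes were called higher and 1 lower in all alternatives but the stricter filter of 50 counts in 4 libraries, where Socs3 was not tested. The log2 fold changes ran from 5.05 to 5.38 for Socs1, 5.66 to 6.07 for Cish, 1.83 to 2.31 for Socs3, -0.89 to -0.73 for Il2rg, -0.26 to -0.10 for Il4ra and -0.01 to 0.07 for Stat6. Adjusted p for Il2rg reached 0.03503 in edgeR's test against a minimum fold of 1.5, under which 1241 loci in all were called higher and 1226 lower. With the replicate block, 3 genes were again higher and 1 lower, and 3915 loci were called higher and 4050 lower; the block changed no other call of these genes. In summed FPKM, the stricter filter of 5 FPKM left 1 gene called higher, since Cish was no longer tested, and quantile normalization gave 2 called lower, with Stat6 at -0.15; its reference isoform was then at -0.16 (limma adjusted p = 0.02413). Why quantile normalization moved Stat6 was not tested. Low counts limit Socs3, Cish without IL-4 and the isoform shares.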

Other observations

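Loci within 20 kb of the 6 genes were read for comparison, by mm9 position. Both larger neighbours of Il2rg on chromosome X were called lower with IL-4, as Il2rg was, against 26.2% of all loci tested. The one at 98449620 to 98456214 had 21.0 ± 1.43 CPM with IL-4 and 33.6 ± 2.2 CPM without (SD, n = 4 each; log2 fold change -0.57, SE 0.08, edgeR adjusted p = 0.0001563). The one at 98469325 to 98516689 had 45.8 ± 1.3 CPM with IL-4 and 65.4 ± 5.38 CPM without (log2 fold change -0.41, SE 0.06, edgeR adjusted p = 0.0003101). Another one, at 98456716 to 98459331, had 22 counts with IL-4 and 32 without and was not tested. Whether these falls share a cause was not tested.

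Downstream of Stat6, the chromosome 10 locus at 127104200 to 127138229 was lower with IL-4, at 17.2 ± 1.23 CPM against 24.7 ± 1.93 CPM (SD, n = 4 each; log2 fold change -0.42, edgeR adjusted p = 0.001494). Upstream of Stat6, an unannotated single-exon locus at 127058293 to 127059747 had 67 counts with IL-4 and 161 without (log2 fold change -1.24, edgeR adjusted p = 0.00029). The small locus at 127100896 to 127102540 had 82 counts with IL-4 and 95 without and was not called.

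The chromosome 11 locus at 117848171 to 117885380, near Socs3, rose 1.61-fold, at 56.0 ± 4.33 CPM with IL-4 and 37.5 ± 4.08 CPM without (SD, n = 4 each; edgeR adjusted p = 8.992e-05). The chromosome 9 locus at 107157258 to 107192208, near Cish, had 71.1 ± 9.18 CPM with IL-4 and 66.9 ± 10.5 CPM without and did not pass the test (edgeR adjusted p = 0.218). Besides the unnamed locus of its window, the 4 further loci near Socs1 held 7, 2, 0 and 0 counts over the IL-4 libraries and 0 over the untreated ones. Past the end of Il4ra, an unannotated single-exon locus at 132736730 to 132737744 on chromosome 7 had 7, 10, 14 and 5 counts with IL-4, against 3, 2, 2 and 4 counts without, and was too low to be tested.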
